A study of Homo sapiens with 6 samples.

Results

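The Kruppel-like factors (KLFs) are a family of DNA-binding transcription factors, and 10 of its genes are described here. KLF2, KLF3, KLF4, KLF5, KLF6, KLF9, KLF10, KLF11, KLF13 and KLF16 were taken by gene symbol from a table of 12982 genes, in which all 10 were found. The table comes from RNA sequencing of SW480, an established human colorectal adenocarcinoma line of wild-type genotype according to the labels. Of the 6 libraries, 3 came from cells given the solvent DMSO and 3 from cells given MPM-1, a mitochondria-targeting fluorescent probe that the labels also call WT4, for 24 h. The dose of MPM-1 in this experiment is not given in the sources used here, and nothing there states that the 3 libraries of a treatment came from separate cultures, so the p-values measure only the spread between libraries. All results come from 1 cell line at 1 time point.

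KLF proteins carry C2H2 zinc fingers near their carboxyl end and bind GC-rich and CACCC-type elements, which they share with the related SP factors. The remainder of the protein decides what is recruited. KLF2, KLF4, KLF5 and KLF6 belong to a group known mainly as activators that can bind acetyltransferases, KLF3 to a group that represses through CtBP, and KLF9, KLF10, KLF11, KLF13 and KLF16 to a group that binds the corepressor Sin3A. In the gut, KLF5 is known from proliferating crypt cells and KLF4 from differentiated cells nearer the lumen. Several KLF genes, among them KLF2, KLF4, KLF6 and KLF10, are also known as early responders to growth factors and stress.

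After MPM-1, KLF2 was 5.10 times its level in DMSO, KLF6 3.11 times and KLF11 3.09 times, while KLF13 and KLF3 rose by smaller folds of 1.65 and 1.49. These 5 of the 10 members passed edgeR's quasi-likelihood test at an adjusted p-value (Benjamini-Hochberg over all genes) under 0.01, all with higher levels, against 20.4% of all genes higher and 20.7% lower by the same rule. KLF2, KLF6 and KLF11 were also differentially expressed genes (DEGs), a name kept here for genes that passed and had a log2 fold change no smaller than 1 in either direction. DEGs made up 5.58% of all genes in the higher direction and 8.75% in the lower, where none of the members was found. In KLF4, KLF9, KLF10 and KLF16 the estimate was above 0 and did not pass, and in KLF5, the most abundant member in DMSO, it was below 0 and did not pass. The median log2 fold change of the members was 0.50, beside -0.026 over all genes tested. These members were chosen with earlier results of the same data known.

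The libraries held between 31733667 and 40269820 counts, and the least abundant member still had 512 counts in its lowest library. Of 9 epithelial markers, all were measured, with a summed level of 5120 to 5890 FPKM (fragments scaled for transcript length and library depth) in DMSO and 7136 to 7624 FPKM after MPM-1. At an adjusted p-value under 0.01, 5 of the 9 were higher (CDH1, KRT8, KRT18, KRT19 and LGALS4, with log2 fold changes of 0.42 to 0.89) and 3 lower (CDX1, CDX2 and VIL1, with -0.98, -2.20 and -0.88), while EPCAM did not pass. Of 10 markers of other cell types, 8 were not among the genes analysed here, and the sum of the remaining COL1A1 and CD14 was 4.96 to 5.88 FPKM in DMSO and 1.10 to 2.59 FPKM after MPM-1. The part of these marker changes in the KLF values was not tested. In bulk libraries a change in the number of cells of a kind cannot be told apart from a change in RNA per cell.

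The start regions of the 3 DEGs are shown first, because these genes rose together and because KLFs themselves bind GC boxes and CACCC elements. RefSeq promoter windows (GRCh38.p14, 250 bases before to 50 after a start) were at hand for 8 members, with 2 starts each for KLF5 and KLF11, or 10 windows. Printed here is the longest stretch before the start that lies in no exon of the gene in GENCODE release 29, for KLF2 chr19:16324576-16324816 on the plus strand, for KLF6 chr10:3785282-3785459 on the minus strand and for KLF11, at the downstream of its starts, chr2:10043971-10044174 on the plus strand. Capitals mark the motifs searched on both strands, which were the GC box GGGCGG, the KLF-type element CACCC, the CCAAT box, the TATA box TATAAA and the CRE core TGACGT.
KLF2: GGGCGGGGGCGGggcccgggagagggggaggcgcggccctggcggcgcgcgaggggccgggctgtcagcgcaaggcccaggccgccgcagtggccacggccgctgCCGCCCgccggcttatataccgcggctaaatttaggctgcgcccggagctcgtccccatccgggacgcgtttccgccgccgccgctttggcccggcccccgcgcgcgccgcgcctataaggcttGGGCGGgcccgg
KLF6: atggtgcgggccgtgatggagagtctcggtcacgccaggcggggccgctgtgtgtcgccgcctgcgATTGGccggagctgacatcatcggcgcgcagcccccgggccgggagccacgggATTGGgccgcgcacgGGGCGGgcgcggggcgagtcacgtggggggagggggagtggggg
KLF11: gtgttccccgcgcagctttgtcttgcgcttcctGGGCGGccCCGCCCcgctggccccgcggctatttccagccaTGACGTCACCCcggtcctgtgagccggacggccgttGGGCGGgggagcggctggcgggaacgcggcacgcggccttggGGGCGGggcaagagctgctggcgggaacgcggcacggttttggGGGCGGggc

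The stretch of KLF2 held 4 GGGCGG matches and none of the other motifs. KLF6 held 1 GGGCGG and 2 CCAAT matches, the latter as the reverse complement. KLF11 held 5 GGGCGG matches, and in it TGACGT was found on both strands of a single palindrome that runs into a CACCC. Over the whole windows of 300 bases, GGGCGG was present in 8 of the 10 windows, against 45.0% of 35116 promoter windows of all genes, with 6 matches in KLF2, 2 in KLF6 and 7 at the downstream start of KLF11. CACCC was present in 4 of the 10 windows, against 59.9% of all windows. TGACGT was present in 2, in KLF11 and KLF13, against 7.98% of all windows, CCAAT in 4 against 34.6% and TATAAA in 1 against 11.5%. GC content was 80.7% in KLF2, 70.7% in KLF6 and 75.3% at the downstream start of KLF11, with a median of 58.7% over all windows, and was lowest in KLF9 at 32.7%. The members that did not pass had such windows too, with 7 GGGCGG matches in KLF16 and 4 in KLF4. A match says only that the letters are there.

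Among the activators, KLF2 had the largest difference. KLF2 (ENSG00000127528, chromosome 19, 16324817 to 16327874 on GRCh38), known from endothelial cells for restraining inflammation and from lymphocytes for keeping them quiescent, had 34.2, 29.0 and 31.9 CPM (counts scaled to a common library total, with the TMM method of edgeR) in DMSO replicates 1 to 3 and 177, 135 and 173 CPM after MPM-1. Each MPM-1 library was above each DMSO library, and even the lowest of them lay far from the control range. The means were 31.7 ± 2.62 and 162 ± 23.0 CPM (SD, n = 3 libraries each). The log2 fold change was 2.35 (standard error 0.12, 95% interval 2.09 to 2.62, adjusted p = 7.22e-07), which put KLF2 at percentile 99.2 of all genes. GENCODE lists 4 processed pseudogenes of KLF2, none among the genes analysed here, and reads shared with them cannot be separated in these counts.

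KLF6 (ENSG00000067082, chromosome 10, 3775996 to 3785281), a broadly expressed factor known as an early response gene and a regulator of CDKN1A, had 54.8, 48.7 and 55.5 CPM in DMSO and 159, 156 and 180 CPM after MPM-1. The libraries of each treatment lay close to each other and the treatments did not overlap. From 53.0 ± 3.73 to 165 ± 13.4 CPM (SD, n = 3 each), the log2 fold change was 1.64 (standard error 0.090, 95% interval 1.44 to 1.84, adjusted p = 1.22e-06 from the same edgeR test). KLF6 had the smallest standard error of the 3 DEGs.

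KLF4 and KLF5, the pair known for opposite roles along the crypt, did not pass. KLF4 (ENSG00000136826, chromosome 9, 107484852 to 107490482), also one of the factors used to reprogram cells to pluripotency, had 15.5, 15.6 and 13.4 CPM in DMSO and 18.5, 19.4 and 21.4 CPM after MPM-1. The treatments did not overlap. The log2 fold change was 0.42 (standard error 0.12, 95% interval 0.14 to 0.69, adjusted p = 0.0153), and GENCODE lists 1 processed pseudogene of KLF4. KLF5 (ENSG00000102554, chromosome 13, 73054976 to 73077542) had 307, 318 and 306 CPM in DMSO and 237, 262 and 319 CPM after MPM-1. Here the treatments overlapped, since MPM-1 replicate 3 was just above all DMSO libraries while replicates 1 and 2 were below them. Its log2 fold change was -0.19 (95% interval -0.42 to 0.047, adjusted p = 0.153), an interval that holds a fold of 0.746 as well as one of 1.03. Without MPM-1 replicate 3 the log2 fold change of KLF5 was -0.30 (adjusted p = 0.0228). The overlap depended on the scaling, since in FPKM the MPM-1 libraries lay at 59.8 to 82.0 and the DMSO libraries at 85.9 to 92.3, without overlap, and with library size alone the log2 fold change was -0.34 (adjusted p = 0.0214).

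**Figure D1:**
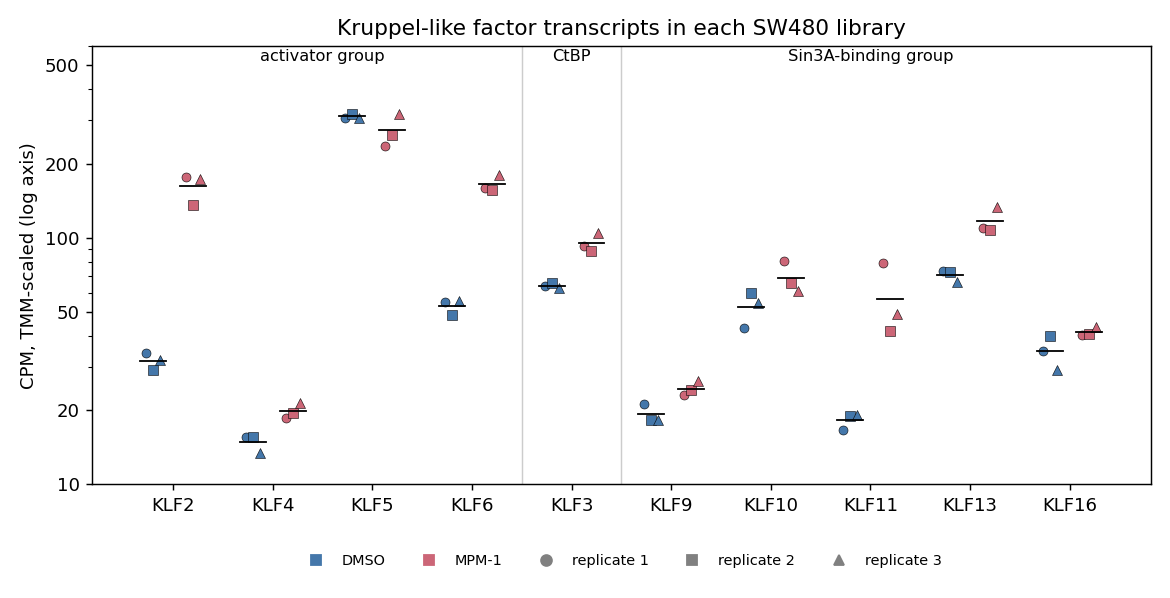
Level of each member in each library, as TMM-scaled CPM on a log axis, with DMSO in blue, MPM-1 in red, a marker shape per replicate and a bar at the mean of 3 libraries. KLF2, KLF6 and KLF11 show wide gaps between the treatments, KLF5 overlaps, and the KLF11 library of MPM-1 replicate 1 stands at 78.8 CPM above the other two.

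KLF3 (ENSG00000109787, chromosome 4, 38664196 to 38701042), the CtBP-binding repressor among the members, had 63.7, 65.7 and 62.3 CPM in DMSO and 92.8, 88.3 and 105 CPM after MPM-1. Its treatments did not overlap and its DMSO libraries were nearly equal. The log2 fold change was 0.58 (standard error 0.083, 95% interval 0.39 to 0.76, adjusted p = 0.000326). Its 5′ end overlaps KLF3-AS1 on the opposite strand, GENCODE lists 2 processed pseudogenes of it, and whether strand was used in counting is not given in the sources used here.

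The FPKM column gave a larger difference for KLF3 than the counts, at 14.2 ± 0.493 and 24.0 ± 2.81 FPKM (SD, n = 3 each). The ratio of count to FPKM, scaled for the library total and set so that the median gene was equal in all libraries, was therefore examined after these values had been seen. For KLF3 it was 4.68, 4.77 and 4.82 in DMSO and 3.81, 3.87 and 3.64 after MPM-1. All 3 MPM-1 libraries were lower, at a ratio of means of 0.793. In the other 9 members the ratio of means stayed between 0.987 and 1.00, though KLF2, KLF5 and KLF10 were lower and KLF6 higher without overlap. Over the 12887 genes with a value, the ratio of means ran from 0.894 to 1.09 between the 5th and the 95th percentile. Of these genes, 1.34% were at or below the ratio of KLF3, and 20.5% had no overlap between the treatments, counting both directions. With FPKM scaled by transcript length, this quantity moves with the length assigned to a gene, and GENCODE release 29 lists coding KLF3 transcripts of 5122 and 1871 bases. Which of them were present was not tested, since the table holds no values per transcript.

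**Figure D2:**
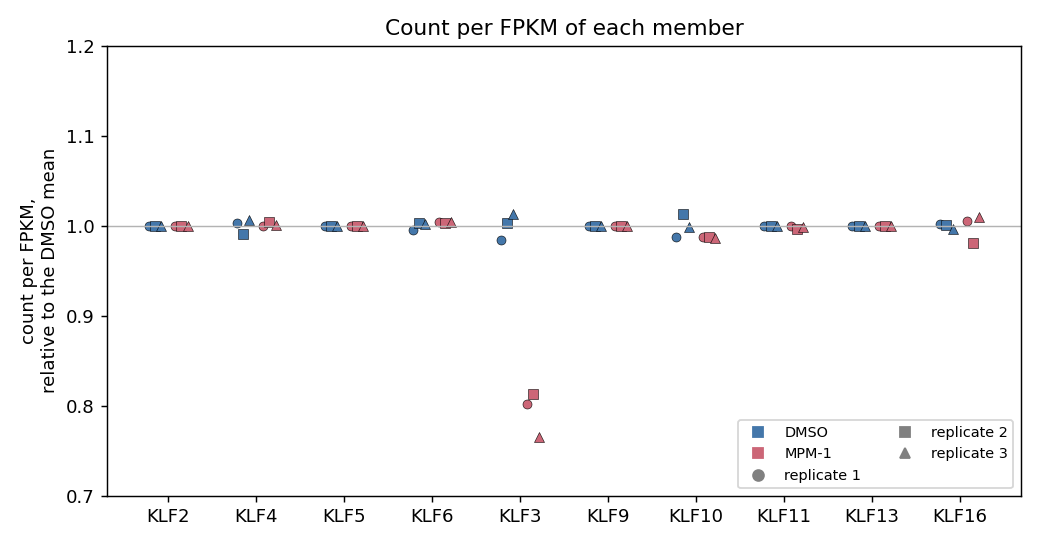
Count per FPKM in each library, divided by the mean of the 3 DMSO libraries of the same gene, with DMSO in blue, MPM-1 in red and a marker shape per replicate. The MPM-1 libraries of KLF3 lie near 0.793 of the DMSO mean and those of the other 9 members close to 1.

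In the Sin3A-binding group KLF11 had the largest difference, and it varied most between libraries. KLF11 (ENSG00000172059, chromosome 2, 10042849 to 10054836), known with KLF10 as a TGF-beta-inducible early gene and as a gene of the pancreatic beta cell, had 16.7, 18.9 and 19.2 CPM in DMSO and 78.8, 41.7 and 48.9 CPM after MPM-1. Each MPM-1 library was above the DMSO range, and replicate 1 was well above the other two. The coefficient of variation was 7.53% in DMSO and 34.8% after MPM-1, the highest of any member. From 18.3 ± 1.37 to 56.5 ± 19.7 CPM (SD, n = 3 each), the log2 fold change was 1.63 (standard error 0.21, 95% interval 1.16 to 2.09, adjusted p = 0.000153). Without MPM-1 replicate 1 it was 1.33 (adjusted p = 2.36e-05). An antisense gene overlaps the 3′ end of KLF11.

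KLF13 (ENSG00000169926, chromosome 15, 31326855 to 31435665), known as an activator of CCL5 in T cells, had 73.6, 72.5 and 66.1 CPM in DMSO and 110, 108 and 133 CPM after MPM-1. The treatments did not overlap. The log2 fold change was 0.73 (standard error 0.098, 95% interval 0.51 to 0.95, adjusted p = 0.000216), under the threshold of 1 for a DEG. The pseudogene UBE2CP4 lies within KLF13 on the same strand.

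KLF9, KLF10 and KLF16 did not pass. KLF9 (ENSG00000119138, chromosome 9, 70384597 to 70414624), a gene induced by glucocorticoids and thyroid hormone, had 21.3, 18.2 and 18.2 CPM in DMSO and 23.0, 24.1 and 26.3 CPM after MPM-1, with a log2 fold change of 0.35 (95% interval 0.10 to 0.59, adjusted p = 0.0215). KLF10 (ENSG00000155090, chromosome 8, 102648779 to 102655902), the close relative of KLF11, had 43.1, 59.5 and 54.2 CPM in DMSO and 80.2, 65.4 and 61.1 CPM after MPM-1. Its DMSO replicate 2 came within a few CPM of MPM-1 replicate 3, and the log2 fold change was 0.40 (95% interval 0.093 to 0.70, adjusted p = 0.0305). KLF16 (ENSG00000129911, chromosome 19, 1852399 to 1863568) had 34.7, 40.1 and 29.0 CPM in DMSO and 40.5, 40.8 and 43.7 CPM after MPM-1, with a log2 fold change of 0.27 (95% interval 0.0044 to 0.53, adjusted p = 0.0772). In CPM the lowest MPM-1 library of all 3 genes was above the highest DMSO library by a small margin, whereas in FPKM the treatments overlapped in each of them. On the opposite strand 2 antisense genes overlap KLF16. KLF10 and KLF11, the 2 TGF-beta-inducible genes, thus had estimates of 0.40 and 1.63, with intervals that do not meet.

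Counted over the 10 members, the treatments did not overlap in TMM-scaled CPM in 9, all with MPM-1 higher. The shares of all genes were 31% higher and 33.3% lower. Of the KLF genes tested outside the members, KLF7 was also higher without overlap in CPM, whereas KLF12 and KLF15 overlapped. In FPKM, and in counts per library total, 6 members were higher without overlap, KLF5 was lower without overlap, and KLF9, KLF10 and KLF16 overlapped. The shares of all genes without overlap were counted in TMM-scaled CPM only, so these counts have no background beside them. When the limit was set at an adjusted p of 0.05 with no demand on the fold, 8 members were higher, against 27.7% of all genes. That count was 5 with library size alone, with limma on FPKM and without DMSO replicate 3. There, KLF4, KLF9 and KLF10 were no longer called at 0.05. KLF5 was lower at 0.05 with library size alone, with limma and without MPM-1 replicate 3. The shares of all genes at 0.05 were not counted under these settings. By group, 2 of the 4 activators, the CtBP-binding KLF3 and 2 of the 5 Sin3A-binding members passed higher at 0.01, against 20.4% of all genes. The median log2 fold change was 1.03 in the activators and 0.40 in the Sin3A-binding group, and whether the groups differ was not tested. Scaling by library size alone moved the median of all genes from -0.026 to -0.18 and the DEGs of the whole table from 725 higher and 1136 lower to 537 and 1470, and in it KLF2, KLF6 and KLF11 kept log2 fold changes of 2.20, 1.49 and 1.47.

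**Figure D3:**
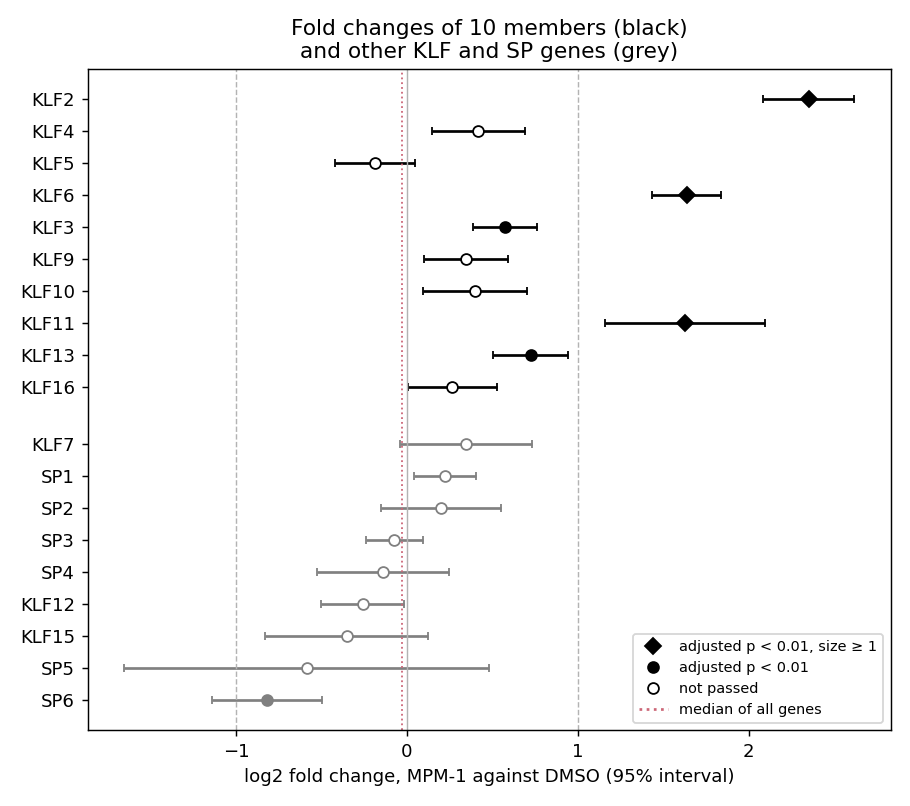
Log2 fold change of MPM-1 against DMSO with its 95% interval, for the 10 members in black and the 9 other KLF and SP genes tested in grey. Diamonds are DEGs, filled circles passed at an adjusted p-value under 0.01 and open circles did not, dashed lines stand at a size of 1 and the dotted line at the median of all genes, and KLF2 lies farthest right at 2.35.

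Per transcript length, the order of the members changed. In DMSO, KLF5 led with 88.9 ± 3.23 FPKM (SD, n = 3 libraries) and no other member came near it. KLF10 followed at 17.0 ± 2.82, then KLF2 at 16.0 ± 1.06 and KLF3 at 14.2 ± 0.493 FPKM, and then KLF16, KLF6 and KLF13 at 12.4, 11.7 and 10.6 FPKM. KLF4, KLF11 and KLF9 were lowest, at 5.41, 4.62 and 3.79 FPKM. Ranges overlapped between KLF10 and KLF2, between KLF3 and KLF16, between KLF16 and KLF6, between KLF6 and KLF13, and between KLF4 and KLF11, so these neighbours did not differ beyond their spread.

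After MPM-1, KLF2 stood at 73.5 ± 9.26 and KLF5 at 70.2 ± 11.2 FPKM (SD, n = 3 each), with overlapping ranges. KLF6 followed at 32.6 ± 2.62 FPKM, up from the sixth place in DMSO. Next were KLF3 at 24.0, KLF10 at 20.4, KLF13 at 15.7, KLF16 at 13.4 and KLF11 at 12.8 FPKM. Ranges overlapped between KLF3 and KLF10 and between KLF16 and KLF11, so the order within these pairs was not resolved. The FPKM of KLF3 after MPM-1 also carries its lower count per FPKM described above. KLF4 and KLF9 remained the lowest with 6.49 and 4.34 FPKM. The summed level of the 10 members was 179, 192 and 183 FPKM in DMSO and 270, 254 and 296 FPKM after MPM-1. KLF5 made up 48.2% ± 0.274 of that sum in DMSO and 25.6% ± 3.06 after MPM-1, while KLF2 made up 8.70% ± 0.873 and 26.8% ± 2.26 and KLF6 6.35% ± 0.601 and 11.9% ± 0.501 (SD, n = 3 each). Without KLF5, the sum was 95.6 ± 3.36 FPKM in DMSO and 203 ± 15.9 FPKM after MPM-1.

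**Figure D4:**
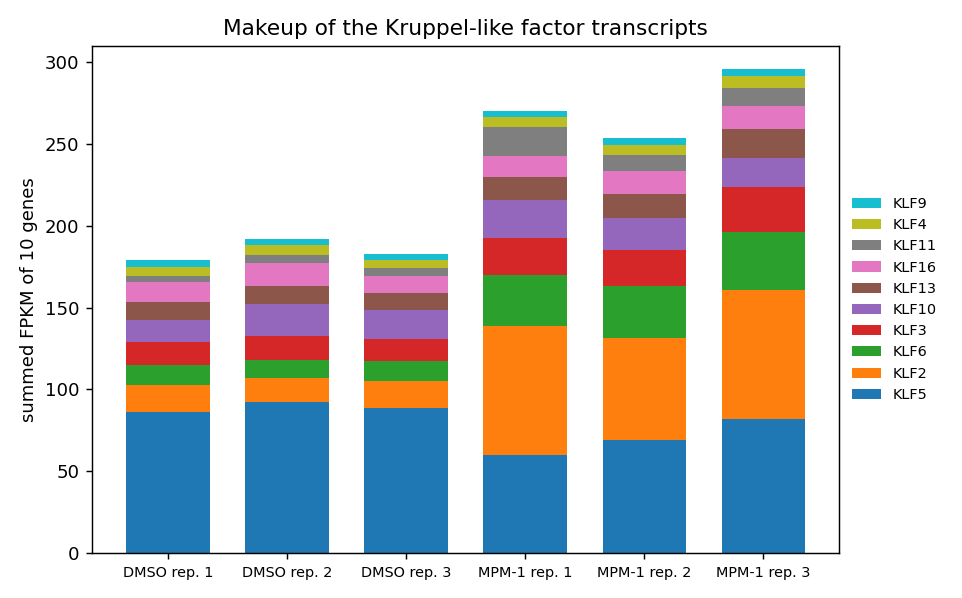
Summed FPKM of the 10 members in each library, stacked by gene from 0, with 1 bar per library. The bars rise from 179 to 192 FPKM in DMSO to 254 to 296 FPKM after MPM-1, and the KLF2 block grows to about the size of the KLF5 block.

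Of 17 other KLF and SP genes, 9 were tested, none was a DEG, and 1 passed at an adjusted p-value under 0.01, in the lower direction, beside 20.4% of all genes higher and 20.7% lower by that rule and DEG shares of 5.58% and 8.75%. This was SP6, with 12.1 ± 0.784 CPM in DMSO and 6.85 ± 0.0527 CPM after MPM-1 (SD, n = 3 each, log2 fold change -0.82, adjusted p = 0.00103). KLF7, KLF12 and KLF15, which are KLF genes of the table outside the 10 members, had log2 fold changes of 0.35, -0.26 and -0.35 with adjusted p of 0.112, 0.0639 and 0.183. The general GC-box factors SP1 and SP3 had 0.22 and -0.072, with adjusted p of 0.0367 and 0.425. The median of the 9 was -0.14, beside 0.50 for the members. Since members and lists were chosen with earlier results of these data known, the 2 medians are not an independent comparison.

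Among 15 genes of proteins with which KLFs act, 1 passed higher and 5 lower, beside 20.4% of all genes higher and 20.7% lower. No DEG was found among them, with DEG shares of 5.58% higher and 8.75% lower over all genes. CTBP2 and CTBP1, corepressors of KLF3, passed in opposite directions with log2 fold changes of 0.36 and -0.33 (adjusted p of 0.00482 and 0.00891). SIN3A, the scaffold bound by KLF9, KLF10, KLF11, KLF13 and KLF16, fell by 0.60 on the log2 scale (adjusted p = 0.00242). EP300, an acetyltransferase used by the activators, fell by 0.45 (adjusted p = 0.00306), and the others that fell were KDM1A and HDAC3. The median of the list was -0.025, close to that of all genes.

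Of 16 regulators known to act upstream of KLF genes, 14 were tested, of which 4 passed higher and 1 lower, again with 20.4% and 20.7% of all genes as background. Their median log2 fold change was 0.24. The DEG shares of all genes were 5.58% higher and 8.75% lower. MEF2D, of the MEF2 factors through which the kinase MAPK7 is known to induce KLF2 and KLF4, was the single DEG, from 36.1 ± 6.50 to 72.5 ± 9.98 CPM (SD, n = 3 each, log2 fold change 1.01, adjusted p = 0.00026). It stands at the threshold of 1, and with library size scaling, or with DMSO replicate 2, DMSO replicate 3, MPM-1 replicate 1 or MPM-1 replicate 3 left out, no gene of the list was a DEG. MEF2A and MAP2K5, which also passed, had 0.53 and 0.45, whereas MAPK7 itself had -0.33 and did not pass (adjusted p = 0.293). In the TGF-beta pathway, which is known to induce KLF10 and KLF11, SMAD3 passed at 0.43 and its receptor TGFBR2 at -0.44.

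Of 8 genes for enzymes known to mark KLF proteins for destruction or to spare them, 3 passed higher and none lower. The shares over all genes were 20.4% and 20.7%, and the median log2 fold change of the list was 0.055. For DEGs, the shares over all genes were 5.58% higher and 8.75% lower. FBXO32, a ligase subunit reported for KLF4, was the single DEG, from 5.35 ± 1.07 to 13.9 ± 0.846 CPM (SD, n = 3 each, log2 fold change 1.38, adjusted p = 0.000164). SMURF1 and SIAH1 passed with 0.76 and 0.42, while FBXW7 and WWP1, known for KLF5, had 0.022 and 0.0032 with intervals on both sides of 0.

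Of 21 genes reported as KLF targets, 18 were tested, of which 8 passed higher and 6 lower. Over all genes the shares were 20.4% and 20.7%. The DEGs numbered 4 in each direction, against 5.58% of all genes higher and 8.75% lower. The largest rises were in ODC1, the first enzyme of polyamine synthesis, with 1.58, in the protease gene PLAU with 1.57 and in the growth factor gene PDGFA with 1.27 on the log2 scale. The fourth was the cell cycle inhibitor CDKN1A, a target reported for KLF4 and KLF6, from 516 ± 90.7 to 1065 ± 44.1 CPM (SD, n = 3 each, log2 fold change 1.05, adjusted p = 5.62e-05). The largest falls were in TXNIP, the gene of a thioredoxin-binding protein, with -3.89, in CCNB1, a mitotic cyclin gene, with -1.99 and in BIRC5, the gene of survivin, with -1.96. ALPI, the gene of the intestinal alkaline phosphatase and a target reported for KLF4, fell as well (-1.16, adjusted p = 0.000199). The list records no reported direction of regulation per gene, so its rises and falls cannot be sorted into activated and repressed targets. Its median was 0.20.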

How the data were processed

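The authors deposited 1 table with a raw count and an FPKM value per gene for each of the 6 libraries of SW480 cells. The submitters' processing notes name HISAT2 and DESeq2, without versions, and the genome build mm10, although the cells and gene identifiers are human. The counting program, annotation, gene filter, use of strand and the length behind FPKM are not given in the sources used here. The deposited log2 fold change and adjusted p-value columns hold the authors' own comparison and were not used. Every gene in the table has at least 115 counts over the libraries.

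Counts were tested with edgeR 4.0.16 in R 4.3.3 (TMM scaling, quasi-likelihood test on the 3 DMSO and 3 MPM-1 libraries, Benjamini-Hochberg over 12982 genes). The filter for low counts removed 0 genes. Standard errors were derived from the log2 fold change and its F statistic. FPKM was used for levels between genes. On simulated counts for 12982 genes, the test called 88 of 100 genes changed by 1 and 100 of 100 changed by 2 on the log2 scale. These counts had the same dispersion of 0.0231 in every gene. A call needed an adjusted p under 0.01 and the right direction, without the fold threshold. The simulation therefore does not give the power for single members, whose spread differed. Alternatives were DESeq2 1.42.0, limma 3.58.1 on log2 FPKM after adding 0.1, 1 or 0.01, other scalings and filters, a replicate block and leaving out each library. No libraries of a treatment agreed within counting noise (chi-square per gene 15.4 to 33.3). Counts of 3, a floor that covers counting error only, equal 0.0695 to 0.0985 CPM.

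The members and the gene lists were chosen with earlier results of these data known. All 10 members are named, as are the 3 largest rises and the 3 largest falls among DEGs of each list. Other genes of the lists were named after their values were seen. Coordinates are from GENCODE release 29 on GRCh38, promoter sequences from RefSeq. KLF3 and KLF10 were not matched there. The comparison of KLF protein sequences was not run.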

Additional observations from a re-analysis of the deposited data

How the results depend on the processing

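KLF2, KLF6 and KLF11 were DEGs and no member was a DEG in the lower direction under every scaling, filter and tool tried and with each library left out. Of 160 values of single members under an alternative, 158 kept direction and side of the threshold and 2 newly passed, both with the DESeq2 test, namely KLF4 (log2 fold change 0.44, adjusted p = 0.00481) and KLF10 (0.42, adjusted p = 0.00604). The setting without a filter repeated the main fit, because the filter removed 0 genes, so its values could not differ. With an adjusted p-value under 0.05 and no fold threshold, 8 members were higher. In combinations added after seeing the data, this count was 5 with library size alone and with each limma fit, where KLF5 was lower at 0.05, and ran from 5 (without DMSO replicate 3) to 8 with 1 library left out. KLF5 was also lower at 0.05 without MPM-1 replicate 3. For these combinations the shares of all genes at 0.05 were not counted. Of 90 DEG counts of the gene lists under an alternative, 85 stayed within 1.5 times, and the rest concern the upstream regulators, where the count of DEGs higher was 0 with library size alone and ran from 0 to 1 with 1 library left out. The 85 include counts that were 0 in both fits. These were both directions of the other KLF and SP genes and of the co-regulators. The lower direction of the upstream regulators and of the enzymes that mark or spare KLF proteins also stayed at 0. Over the whole table, limma on log2(FPKM + 1) called 351 genes higher and 716 lower and limma on log2(FPKM + 0.1) 445 and 1095, beside 725 and 1136 with edgeR. With 1 library left out, the log2 fold change ran from 2.29 to 2.49 in KLF2, from 1.58 to 1.70 in KLF6, from 1.33 to 1.83 in KLF11 and from -0.30 to -0.080 in KLF5. The cause of these shifts was not tested.

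Whether replicate numbers pair the samples was not settled. The log2 CPM of each library, as deviations from its group mean, was correlated between DMSO and MPM-1 libraries. Libraries with the same number had correlations of 0.0214, 0.114 and -0.0737, and those with different numbers from -0.130 to 0.115. With 3 libraries a group these deviations depend on each other, so the check cannot decide on pairing. With the replicate number as a block, 3 members were DEGs higher and 0 lower, and the log2 fold changes of KLF2, KLF6 and KLF11 were 2.34, 1.64 and 1.57. In KLF4, KLF9, KLF10 and KLF16 the 95% intervals above 0 and the missed threshold leave small differences undecided with 3 libraries a group.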

Other observations

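The genes whose log2 CPM over the 6 libraries, centred on their own mean, lay closest to those of KLF2 were TIPARP, HERPUD1 and C6orf48. Their distances from KLF2 were 0.269, 0.307 and 0.326 on the log2 scale, and their log2 fold changes were 2.18, 2.17 and 2.17. The likeness rests on 6 libraries that share a single contrast.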
